A study of Arabidopsis thaliana with 18 samples.

Results

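The root response of Arabidopsis thaliana to excess phosphate was read from 6 of the 18 arrays of a phosphate supply series. The 6 arrays were chosen by their labels alone: 3 of root at 20 mM phosphate (P20) and 3 of root at the control supply of 1.25 mM (P1.25). Seedlings of the Col-0 ecotype, with no transgene or mutation named, were raised in hydroponic MS medium containing sucrose and then moved for 7 days to medium with 0, 1.25 or 20 mM phosphate. Phosphate was supplied as its potassium salt, so that potassium rose with it at P20, and their effects cannot be told apart. In the medium without phosphate, potassium sulphate took the place of this salt. Root and shoot were harvested separately, and total RNA was hybridised to Affymetrix whole-transcript arrays, with 3 independent biological experiments per group. The remaining groups, shoot at P20, shoot at P1.25, and root and shoot without phosphate (P0), supplied the estimate of spread and the values set beside those of root at P20. Each array gave 1 log2 level for each of 38408 transcripts, so that a difference of 1 is a 2-fold difference. Every p-value below measures the spread between these arrays. Whole roots were sampled, so that fewer cells of a type and less RNA per cell cannot be told apart.

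Phosphate is taken up at the root surface by PHT1 transporters, and when it is short the PHR1 regulators switch on transporters, phosphatases, SPX sensors and enzymes that replace phospholipids. Phosphate also binds iron and zinc, and roots of Arabidopsis acquire iron by reducing it with FRO2 and importing it with IRT1, both under the bHLH factor FIT. The question put to these arrays was which root transcripts differ when phosphate is supplied in excess.

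The third array stood apart in both root groups. It carried 45.8% of the squared deviation from the group means at P20, against 25.7% and 28.5% for arrays 1 and 2, and 41.9% at P1.25, against 31.5% and 26.6%. The third shoot arrays, which enter the estimate of spread, carried 47.3% at P20 and 42.2% at P1.25. Results are therefore given with every array and again without the third arrays of these 2 groups, a fit of 16 arrays. The 13 measured root marker genes averaged 8.00 to 9.08 on the root P1.25 arrays and 8.38 to 9.55 on the P20 arrays, against 5.64 to 6.23 in shoot at P1.25, with the third root array lowest in each root group. The 10 measured shoot marker genes averaged 5.00, 5.37 and 5.71 on the root P1.25 arrays and 5.04, 4.68 and 5.66 on the root P20 arrays, against 8.51 to 9.30 in shoot at P1.25. None of these shoot markers was called between the root groups in either fit, with 0 and 2 at an unadjusted p under 0.05, and 8 of 10 had lower means at P20 with every array and all 10 without the third ones. Of the 13 root markers none was called with every array, with 1 at an unadjusted p under 0.05, and 2, IRT1 and NRT2.1, were called higher without the third arrays, with 6 at an unadjusted p under 0.05. Over all transcripts, 5.58% had an unadjusted p under 0.05 with every array and 7.18% without the third ones. Among the 13 root markers are FRO2, IRT1 and NRT2.1, uptake genes also reported below. The root marker average is therefore no separate measure of root tissue. The part of the root and shoot markers in the differences below was not tested.

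With every array, 18 of 38408 transcripts (0.0469%) passed the threshold in root at P20, an adjusted p under 0.1 in limma at any fold, and are called below. Of these, 15 were higher (0.0391%) and 3 were lower (0.00781%), and 12 differed by more than 2-fold. At an unadjusted p under 0.05 there were 2143 (5.58%). All 18 had P20 arrays that did not overlap the P1.25 arrays, a separation seen in 11.1% of all transcripts. The median difference over all transcripts was 0.01. Of the 18, 12 could be given 1 gene.

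The largest rise was that of AT2G36255, one of 3 risen genes that gene ontology terms in the study's material place in the extracellular region. Its log2 levels were 3.56, 3.89 and 3.31 at P1.25 and 9.38, 9.24 and 7.30 at P20. It rose by 5.05 ± 0.42 (SE, n = 3 per group), or 33.2-fold, with an adjusted p of 0.000121 (limma). The third P20 array lay well below arrays 1 and 2 but still far above every control array. AT1G34047, another of the 3, gave 3.67, 3.72 and 4.39 at P1.25 and 9.05, 8.67 and 7.31 at P20, a rise of 4.42 ± 0.37 (21.4-fold, limma adjusted p 0.000121). As in AT2G36255, the third P20 array was the lowest of its group and the groups were far apart.

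NRT1.8 encodes a nitrate transporter known to take nitrate back out of the xylem sap in roots, and it is a known stress-responsive gene. It read 5.34, 5.89 and 6.06 at P1.25 and 9.73, 9.72 and 9.20 at P20. The rise was 3.79 ± 0.32, or 13.8-fold (limma adjusted p 0.000121), and the 3 P20 arrays lay closer together than for the genes above. AT5G33355 encodes a defensin-like protein, of the small secreted cysteine-rich class named for antimicrobial defensins. Its levels were 7.43, 6.10 and 7.11 at P1.25 and 11.19, 10.83 and 9.37 at P20, giving a rise of 3.58 ± 0.41, or 11.9-fold (limma adjusted p 0.00282). Here the control arrays were spread as well, and the lowest P20 array remained above the highest control array. The probes of this gene belong to a family with close relatives, and cross-hybridisation between them was not tested. Of the 93 transcripts named as defensin-like in the study's material or the annotation, AT5G33355 was the only one called in root at P20 (0.0391% of all transcripts were called higher), and the median difference of the 93 was -0.06. The 93 do not include AT2G36255, AT1G34047 and AT4G11393, the 3 risen genes placed in the extracellular region. Whether these 3 are defensin-like was not tested, so the 93 may miss members that were called. The study discusses a defensin-like gene, DEFL203, as highly expressed in root at P20. The sources used here pair that name with no locus. AT2G36255 had the largest rise here, at 33.2-fold, and AT1G34047 had the next largest, at 21.4-fold. Among the called transcripts, only AT2G36255 matched the fold printed for DEFL203 to the nearest whole number. AT2G36255 may therefore be that gene, but without a source that pairs the names this is not settled.

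Smaller rises were found in 5 more named genes. AT4G31330 had 5.38, 5.28 and 4.85 at P1.25 and 7.45, 7.41 and 6.50 at P20, a rise of 1.95 ± 0.22 with a limma adjusted p of 0.00282. AT4G11393, the third of the genes placed in the extracellular region, had 4.94, 4.27 and 4.57 against 6.69, 6.18 and 5.64, and rose by 1.58 ± 0.27 (limma adjusted p 0.0795). In both, the third P20 array was again the lowest of its group. AT2G43660 ran the other way, with 3.98, 4.08 and 3.65 at P1.25 and 5.22, 5.05 and 5.54 at P20, and rose by 1.37 ± 0.19 (limma adjusted p 0.0198). AT5G08360 had its highest level on the third P20 array too, at 6.05 beside 5.44 and 5.74, against 4.76, 4.92 and 4.86 at P1.25, a rise of 0.90 ± 0.15 (limma adjusted p 0.0795). AT5G40100 gave the smallest rise, 0.56 ± 0.09 (limma adjusted p 0.0795), from 6.05, 6.06 and 5.97 to 6.66, 6.49 and 6.6. The SD within its groups was 0.05 at P1.25 and 0.08 at P20. The sources used here give no role for these 5 loci. The other 6 risen transcripts have no single gene in the annotation used, and they rose by 0.92 to 2.00.

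All 3 transcripts that fell were named. AT1G64370, a hypothetical protein, read 9.60, 9.83 and 9.61 at P1.25 and 8.67, 8.39 and 7.83 at P20, and fell by 1.39 (SE 0.21, limma adjusted p 0.0511). AT1G67870, which encodes a glycine-rich protein, read 9.26, 9.34 and 8.89 against 8.45, 8.32 and 7.97, and fell by 0.92 (SE 0.15, limma adjusted p 0.0795). In these 2 genes the third P20 array was the lowest. NSP3, a nitrile-specifier protein that steers glucosinolate breakdown towards nitriles, read 5.72, 5.60 and 5.76 against 4.97, 4.78 and 4.99, and fell by 0.78 (SE 0.13, limma adjusted p 0.0795). On the third array it was in step with the others in both groups. NSP3 was the only one of 7 measured genes of glucosinolate breakdown to be called, and the median difference of the 7 was -0.21.

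**Figure D1:**
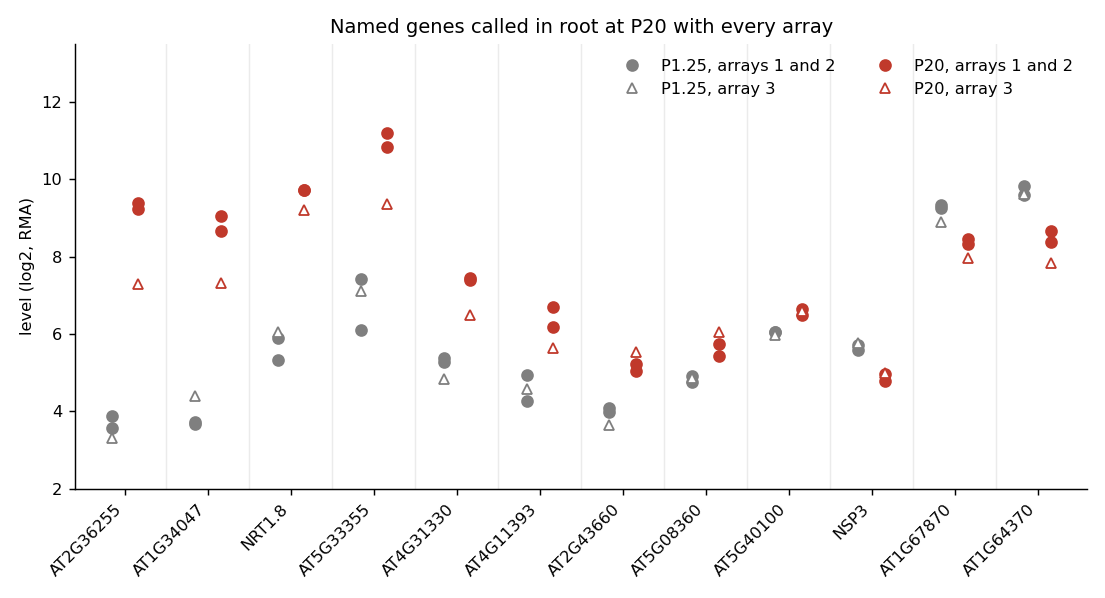
Log2 level (RMA, vertical axis) of the 12 named transcripts called in root at P20, with 1 symbol per array: grey for P1.25, red for P20, filled circles for arrays 1 and 2 and open triangles for array 3. No gene has overlapping groups, and for AT2G36255, AT1G34047 and AT5G33355 the third P20 array sits at 7.30, 7.31 and 9.37, below the other P20 arrays and above the controls.

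The same transcripts were also read in shoot at P20. None of the 18 transcripts was called in shoot at P20, where 10 transcripts rose (0.026%) and 4 fell (0.0104%). The difference between the root and the shoot response was tested directly, and 4 transcripts passed (0.0104%), of which 3 were called in root. With a term for the replicate number added to the fit, none passed. AT2G36255 differed by 0.03 in shoot at P20, and its root response exceeded the shoot response by 5.03 ± 0.60 (limma adjusted p 0.0207). AT1G34047 differed by 0.45 in shoot, and its responses were 3.97 ± 0.53 apart (limma adjusted p 0.028). For NRT1.8 the shoot difference was 1.1 (limma adjusted p 0.369), and the gap of 2.69 ± 0.46 between the tissues did not pass (limma adjusted p 0.2). For AT5G33355 the shoot difference was 0.57 and the gap of 3.01 ± 0.57 did not pass either (limma adjusted p 0.362). The 3 fallen genes had shoot differences of -0.69, -0.53 and -0.40, none of them called, and gaps of -0.70, -0.39 and -0.38 with adjusted p of 0.998. For these 3 genes the tissues were therefore not shown to differ.

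Root at P0 shares its control arrays with root at P20, so the values of both are set side by side with no measure of likeness. At P0, 10.8% of transcripts were called higher and 18.1% lower. NRT1.8 rose at P0 as well, by 3.83 (limma adjusted p 3.19e-06), beside its rise of 3.79 at P20. AT2G36255 and AT1G34047 differed at P0 by -0.04 and -0.39, and neither was called. AT5G33355 fell at P0 by 1.66 (limma adjusted p 0.00884), beside its rise at P20. NSP3 did the reverse, rising by 1.68 at P0 (limma adjusted p 1.01e-06) where it fell at P20. AT5G40100 rose at P0 by 0.86 (limma adjusted p 2.62e-05), and the other 6 named genes were not called there.

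**Figure D2:**
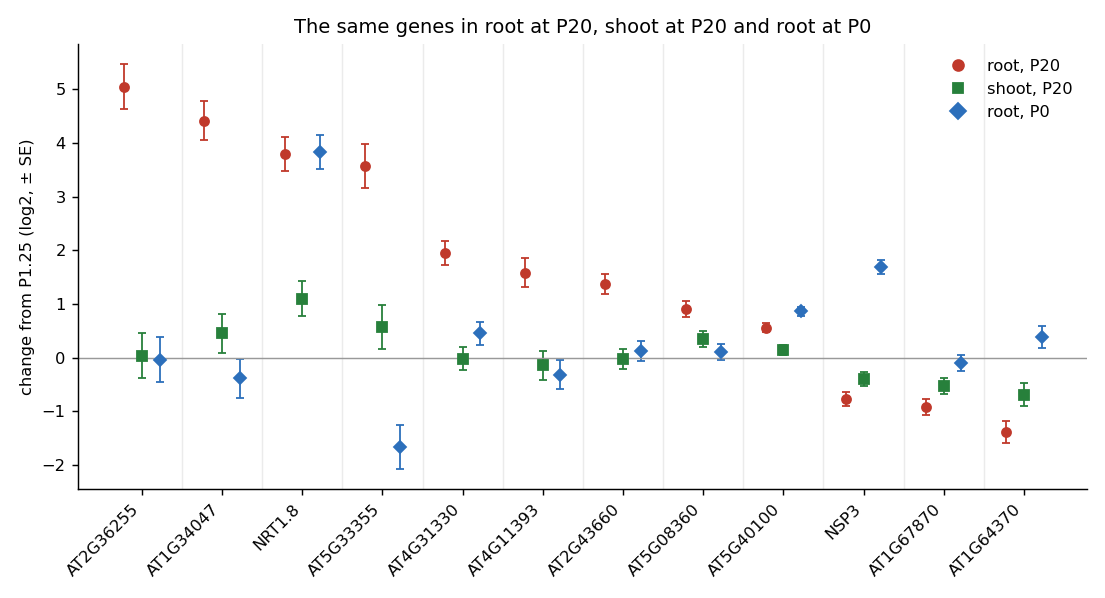
Log2 change from P1.25 (vertical axis, points, with bars of 1 SE from the limma fit, 3 arrays per group) of the 12 named transcripts in root at P20 (red), shoot at P20 (green) and root at P0 (blue). The shoot points run from -0.69 for AT1G64370 to 1.1 for NRT1.8, the P0 points of NRT1.8 and NSP3 stand at 3.83 and 1.68, and that of AT5G33355 at -1.66; root P20 and root P0 share their control arrays.

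Without the third arrays, 148 transcripts were called in root at P20 (0.385%), of which 62 were higher (0.161%) and 86 lower (0.224%). At an unadjusted p under 0.05 there were 2756 (7.18%), and the median difference over all transcripts was 0.03. Of the 18 transcripts called with every array, 15 were among the 148, all in the same direction. The exceptions were AT5G08360 at 0.76 (limma adjusted p 0.147), AT5G40100 at 0.52 (limma adjusted p 0.148) and 1 transcript with no gene name. The rises of the leading genes were larger without the third arrays, at 5.59 for AT2G36255, 5.16 for AT1G34047, 4.24 for AT5G33355 and 4.11 for NRT1.8. Each group here holds 2 arrays, and their spread was pooled with that of the other groups. Leaving out the third shoot arrays at P20 and P1.25 as well kept these root differences with a smaller estimate of spread, and 1003 transcripts were then called in root (2.61%), 359 higher (0.935%) and 644 lower (1.68%). The gap between root and shoot responses passed in 380 (0.989%) under that choice.

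The third arrays, which took no part in those calls, differed between the 2 directions. Of the 62 transcripts higher at P20 on arrays 1 and 2, 48 were also higher on the third P20 array than on the third P1.25 array, and the median difference between the third arrays was 0.35. Over all transcripts with a higher mean on arrays 1 and 2, 48.5% were higher on the third. Of the 86 lower transcripts, 28 were lower on the third P20 array, against 51.8% over all transcripts with a lower mean, and the median difference between the third arrays was 0.30 in the opposite direction. Over all 6 arrays, 52 of the 148 had groups that did not overlap, beside 11.1% of all transcripts. Of these, 30 were higher and 22 lower, beside 6.24% and 4.83% of all transcripts. Being called on arrays 1 and 2 already favours such a separation, so these counts are no separate support for the calls. Some of the 148 hold identical values on every array, and counted once by value they were 139. Of those 59 were higher, 45 of them also on the third array, and 80 were lower, 25 of them also on the third array, with 27 and 19 not overlapping.

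**Figure D3:**
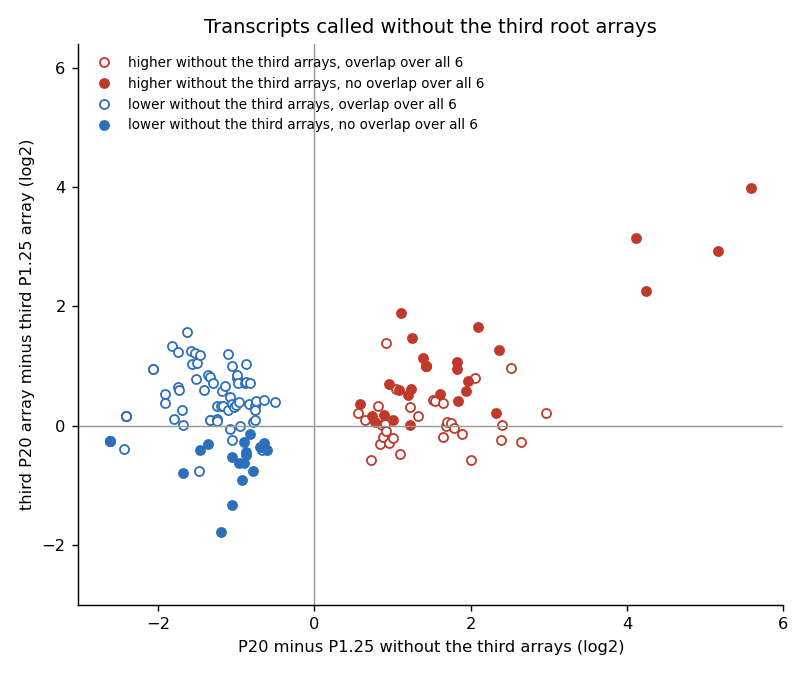
Each point is 1 of the 148 transcripts called without the third arrays, with its log2 difference on arrays 1 and 2 (horizontal axis) against the log2 difference between the third P20 and the third P1.25 array (vertical axis); red points are higher, blue points lower, and filled points do not overlap over all 6 arrays. Most of the red points (48 of 62) lie above 0 on the vertical axis, and so do most of the blue points, of which only 28 of 86 lie below it.

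Among the named genes called without the third arrays whose 6 arrays did not overlap, AT2G16660 read 6.12, 5.96 and 7.10 at P1.25 and 8.08, 7.92 and 7.86 at P20. It rose by 1.96 ± 0.30 on arrays 1 and 2 (limma adjusted p 0.0213), and the third control array was the high one. ATPMEPCRB, a pectin methylesterase of the cell wall, read 5.04, 4.92 and 4.86 against 6.94, 6.90 and 5.45, a rise of 1.94 ± 0.28 (limma adjusted p 0.0145). AT2G45360 read 5.57, 5.41 and 5.47 against 7.58, 7.09 and 5.87, and rose by 1.84 ± 0.34 (limma adjusted p 0.0546). In the last 2 genes the third P20 array was close to the control arrays. With every array, none of these 3 was called, at adjusted p of 0.136, 0.302 and 0.457 (limma).

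The leading fall of this kind was that of AT1G58320, a PLAC8 family protein, which read 6.41, 6.70 and 5.30 at P1.25 and 4.97, 4.78 and 4.51 at P20. It fell by 1.68 without the third arrays (limma adjusted p 0.000877), and with every array it differed by -1.38 (limma adjusted p 0.136). In both groups the third array was the lowest. AT5G52790 read 7.81, 7.84 and 6.78 against 6.34, 6.57 and 6.47, and fell by 1.36 (limma adjusted p 0.00864). In AT2G43530 the third array was the highest of both groups, at 5.84 beside 4.69 and 4.81 at P1.25 and 4.52 beside 3.80 and 3.59 at P20, and the gene fell by 1.06 (limma adjusted p 0.0661). ACR9, a protein with ACT domain repeats, AT4G11700 and AT2G32340 fell by 0.90, 0.90 and 0.87, with limma adjusted p between 0.0309 and 0.058.

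Genes of iron acquisition were the largest listed group among the rises without the third arrays. Of 42 listed genes of iron uptake and iron deficiency, 22 had a named transcript, and 2 of these, IRT1 and FRO2, are also among the root markers. NAS2, FRO5 and FRD3, which the study discusses, were not analysed here and are not among the 22. With every array none was called, 4 passed at an unadjusted p under 0.05, beside 5.58% of all transcripts, and 19 had higher means at P20, with a median difference of 0.67 beside 0.01 over all transcripts. Without the third arrays 4 rose, beside 0.161% of all transcripts, and 10 passed at an unadjusted p under 0.05, beside 7.18%, and the median difference was 0.93 beside 0.03. Averaged over the 22 genes, the arrays read 7.21, 7.58 and 6.47 at P1.25 and 8.40, 8.31 and 6.67 at P20. The third array was the lowest in both groups, and the third P20 array lay below P1.25 arrays 1 and 2. Between the third arrays, 14 of the 22 genes were higher at P20, with a median difference of 0.16.

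IRT1, the main iron importer of the root surface, read 5.48, 6.2 and 2.75 at P1.25 and 7.99, 7.82 and 3.55 at P20. It rose by 2.06 ± 0.29 without the third arrays (4.18-fold, limma adjusted p 0.0119), and with every array it differed by 1.64 ± 0.96 (limma adjusted p 0.932). In both groups the third array was several log2 units below the rest of their group. AT3G12900 read 7.88, 9.14 and 4.52 against 10.89, 10.91 and 4.27, and rose by 2.39 ± 0.46 without the third arrays (limma adjusted p 0.0741). BGLU42, a beta-glucosidase known for releasing iron-mobilising coumarins, read 7.88, 8.44 and 7.07 against 9.73, 9.86 and 7.46, a rise of 1.64 ± 0.21 (limma adjusted p 0.00556). AT1G74770 read 9.09, 9.36 and 8.41 against 10.11, 10.17 and 8.33, and rose by 0.92 ± 0.18 (limma adjusted p 0.0839). For AT3G12900 and AT1G74770 the third P20 array was lower than the third P1.25 array.

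FRO2 and FIT were looked up after their values had been seen, because they stand at the head of this pathway. FRO2, the ferric reductase, read 10.43, 11.25 and 5.42 at P1.25 and 12.82, 12.76 and 6.92 at P20. The third P20 array exceeded the third P1.25 array by 1.51, the same direction as on the rest, yet FRO2 passed neither fit, with 1.95 ± 0.55 and a limma adjusted p of 0.314 without them. FIT, listed under its older symbol FRU, read 8.09, 8.14 and 6.91 against 8.86, 8.89 and 6.99, a difference of 0.76 ± 0.31 (limma adjusted p 0.624). NAS4, which makes the metal chelator nicotianamine, was one of 4 members of the list with every P20 array above every P1.25 array, beside 6.24% of all transcripts, and 1 member had them all below, beside 4.83%. It read 5.84, 5.96 and 6.0 at P1.25 and 8.08, 7.95 and 6.89 at P20, but with a difference of 1.71 ± 0.46 (limma adjusted p 0.477) it was not called, nor without the third arrays at 2.11 (limma adjusted p 0.23). In root at P0, 10 genes of the iron list fell, beside 18.1% of all transcripts, and 3 rose, beside 10.8%. IRT1 fell there by 2.83 (limma adjusted p 0.0481) and AT1G74770 by 3.22 (limma adjusted p 4.4e-05). Of the 22 genes of this list, 10 were named by the platform annotation. The rest, IRT1 among them, were named by study lists that over-represent genes that differ at P0. The counts at P0 are therefore not independent of how the genes were named.

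Uptake genes for other nutrients were mixed. COPT2, a copper importer, was the only called gene of 3 measured in copper deficiency, and it was called without the third arrays. It read 6.63, 6.03 and 5.76 at P1.25 and 7.97, 7.77 and 6.16 at P20, and rose by 1.54 ± 0.27 without the third arrays (limma adjusted p 0.0417). The third P20 array lay within the range of the control arrays. NRT2.1, a high-affinity nitrate importer, read 6.21, 5.87 and 8.13 against 8.88, 8.5 and 7.86, a rise of 2.65 ± 0.32 without the third arrays (6.28-fold, limma adjusted p 0.00447). The third control array was about as high as the P20 arrays, and with every array the difference was 1.68 ± 0.46 (limma adjusted p 0.534). NRT1.8 and NRT2.1 were the only called genes of 11 measured for nitrate and ammonium, a list whose median difference was -0.06 with every array and -0.10 without the third ones. All 6 measured genes of zinc deficiency had higher means at P20 and none was called, with medians of 0.25 and 0.38. With every array and without the third ones, 2 and 3 passed at an unadjusted p under 0.05, beside 5.58% and 7.18% of all transcripts. NAS4 is one of these 6 and is also counted in the iron list. Between the third arrays 3 of the 6 were higher at P20 and 3 lower, with a median of 0.05. ZIP1, a zinc transporter, read 7.48, 7.42 and 7.75 against 8.03, 7.98 and 8.31, a difference of 0.56 ± 0.17 (limma adjusted p 0.61) with no overlap. None of 4 measured potassium transport genes was called in either fit, and none passed at an unadjusted p under 0.05.

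A further 3 genes had strong rises on arrays 1 and 2, and they are named here after their values were seen. AT1G52120, a jacalin-like lectin domain protein, read 6.59, 7.35 and 5.57 at P1.25 and 9.56, 9.41 and 6.54 at P20, and rose by 2.51 ± 0.23 (limma adjusted p 0.000877). AT5G38820 read 5.78, 5.93 and 3.73 against 8.33, 8.18 and 3.75, a rise of 2.4 ± 0.23 (limma adjusted p 0.000877). CYP71B5, a cytochrome P450, read 3.27, 3.77 and 3.33 against 5.33, 5.30 and 3.29, a rise of 1.79 ± 0.19 (limma adjusted p 0.00156). In the last 2 the third P20 and P1.25 arrays were level with each other. Without the third arrays the gap between root and shoot responses passed for all of them, at 2.17, 2.13 and 1.96 (limma adjusted p 0.0274, 0.0274 and 0.0152), among 38 transcripts in all (0.0989%).

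Of the falls without the third arrays, most ran the other way on the third array, and the genes below show the form that this took. RTFL12 encodes a small peptide of the ROTUNDIFOLIA-like family. It read 7.87, 7.91 and 7.23 at P1.25 and 6.04, 5.62 and 8.19 at P20, and fell by 2.06 without the third arrays (limma adjusted p 0.0255). DIC2, a mitochondrial dicarboxylate carrier, read 8.70, 8.55 and 7.91 against 6.48, 6.65 and 8.86, and fell by 2.06 (limma adjusted p 0.0741). HSPRO2, an orthologue of a sugar beet nematode resistance gene, read 8.51, 8.49 and 7.76 against 6.88, 7.06 and 8.98, and fell by 1.53 (limma adjusted p 0.00452). In these 3 genes the third P20 array was the highest of all 6 arrays. TCH2, a touch-induced calmodulin-like protein, read 8.27, 8.08 and 7.53 against 7.07, 6.93 and 8.13, and fell by 1.18 (limma adjusted p 0.00287). These 4 genes are named after their values were seen, and with every array they differed by -1.06 to -0.59 with adjusted p from 0.856 to 0.947 (limma).

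Many of the ERF transcription factors are known to be induced by ethylene, wounding or osmotic stress. Of the 22 ERF genes measured here, 5 were named by the platform annotation. The rest were named by study lists that over-represent genes that differ at P0, so the 22 do not stand for the whole family. None of the 22 was called with every array, with 1 at an unadjusted p under 0.05 and a median difference of -0.06. Without the third arrays 3 fell, beside 0.224% of all transcripts, and 12 passed at an unadjusted p under 0.05, beside 7.18%. The median was then -0.42, and 6 of the 22 had higher means at P20. Between the third arrays, 18 of the 22 were higher at P20, with a median of 0.75. ERF13 read 6.27, 6.35 and 5.75 at P1.25 and 4.87, 4.11 and 7.09 at P20, and fell by 1.82 without the third arrays (limma adjusted p 0.0558). AT5G51190, annotated as ERF105, read 6.34, 6.07 and 5.02 against 4.75, 4.73 and 6.19, and fell by 1.46 (limma adjusted p 0.0174). ERF104 read 9.53, 9.47 and 8.24 against 8.63, 8.60 and 8.96, and fell by 0.89 (limma adjusted p 0.0301). In all 3 the third P20 array exceeded the third P1.25 array.

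Other stress-related lists had no call in either fit, but TCH2, the touch-induced gene called above without the third arrays, is in none of them. Over 4 measured genes of wounding and touch the median difference was -0.32 with every array and -0.95 without the third ones, while the third arrays differed by a median of 1.12. The mean level of these 4 genes was 7.23, 7.12 and 7.25 at P1.25 and 6.29, 6.21 and 8.17 at P20, so that the third P20 array was high and the other P20 arrays were low. Over 8 measured jasmonate genes the medians were -0.16 and -0.61, and 0.77 between the third arrays. None of either list passed at an unadjusted p under 0.05 with every array, beside 5.58% of all transcripts. Without the third ones 2 and 3 did, beside 7.18%. WRKY40, a stress-induced regulator, read 8.33, 8.26 and 9.01 against 6.84, 6.81 and 9.78, a difference of -0.72 ± 0.62 (limma adjusted p 0.965).

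**Figure D4:**
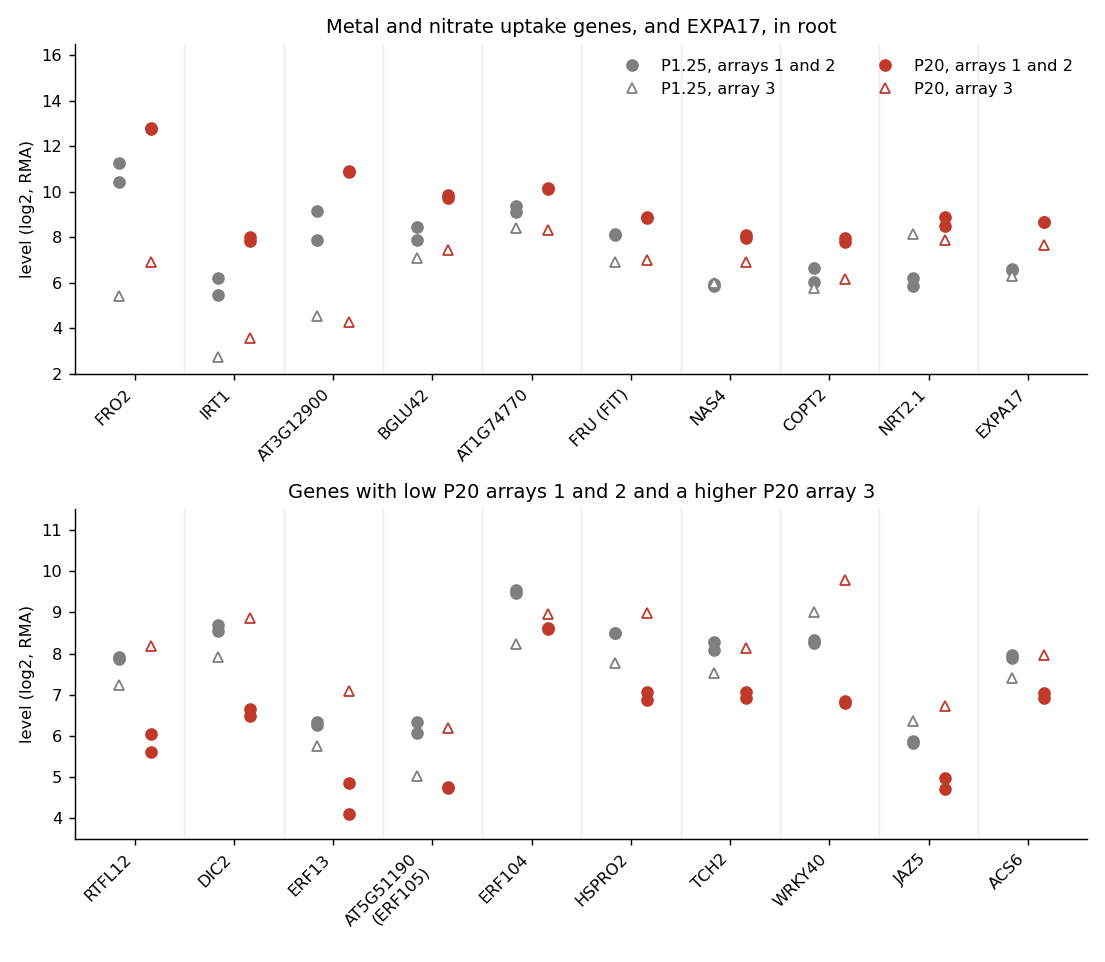
Log2 level (RMA, vertical axes) per root array of metal and nitrate uptake genes with EXPA17 (upper panel) and of genes low on P20 arrays 1 and 2, chosen after their values were seen (lower panel), grey for P1.25 and red for P20, with filled circles for arrays 1 and 2 and open triangles for array 3. In the upper panel the third arrays of FRO2 (5.42 and 6.92) and IRT1 (2.75 and 3.55) lie below the rest of both groups, and in the lower panel the third P20 array, at 8.98 for HSPRO2 and 9.78 for WRKY40, lies above the other P20 arrays.

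Genes of the phosphate starvation response were not called in root at P20. Of 80 listed genes of transport, signalling, lipid remodelling and acid phosphatases, 47 had a named transcript, and none was called in either fit. At an unadjusted p under 0.05 there were 10 with every array and 7 without the third ones, beside 5.58% and 7.18% of all transcripts. Means were lower at P20 for 34 of the 47 and higher for 13, with a median difference of -0.13 beside 0.01 over all transcripts, and 36 were lower without the third arrays, with a median of -0.17. All 3 P20 arrays lay below all 3 P1.25 arrays for 11 of the 47, beside 4.83% of all transcripts, and above them for none, beside 6.24%. At P0, 38 of these genes rose in root and 2 fell, beside 10.8% and 18.1% of all transcripts. Many of their names come from study lists of genes that differ at P0, so that the count at P0 is not independent of how they were named.

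AT4 (AT5G03545), a non-coding RNA that titrates the starvation microRNA miR399, had the largest difference of these. It read 6.81, 6.61 and 6.80 at P1.25 and 5.17, 4.66 and 4.63 at P20, a difference of -1.92 ± 0.43 (limma adjusted p 0.302). SPX1, a phosphate sensor that holds PHR1 back, read 7.02, 6.52 and 7.90 against 5.95, 5.63 and 5.87, a difference of -1.33 ± 0.26 (limma adjusted p 0.149). PHT1;4, a root phosphate importer, read 5.23, 4.91 and 4.56 against 4.21, 4.29 and 3.83, a difference of -0.79 ± 0.20 (limma adjusted p 0.388). None of these 3 overlapped between the groups, and the third arrays ran in the direction of the others. SRG3, a glycerophosphodiester phosphodiesterase that salvages phospholipid headgroups, read 6.83, 6.69 and 7.08 against 6.36, 6.24 and 6.33, a difference of -0.56 ± 0.10 (limma adjusted p 0.136). Its fall in shoot was larger, at 1.74 (limma adjusted p 2.91e-06), and the gap between the tissues of 1.18 ± 0.15 passed (limma adjusted p 0.0207). G3Pp1, a glycerol-3-phosphate permease family member, and PAP17, an acid phosphatase, differed by -0.71 (limma adjusted p 0.702) and -0.54 (limma adjusted p 0.831). PHT1;7 and PHO1;H1 had higher means at P20, by 0.33 and 0.36, with overlapping arrays.

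Ethylene synthesis was measured by 8 genes, of which none was called in either fit, with medians of -0.02 and -0.04, and with 0 and 1 at an unadjusted p under 0.05. ACS2 and ACS6, which make the ethylene precursor, differed by 0.56 ± 0.35 and -0.45 ± 0.31 (limma adjusted p 0.939 and 0.948). ACS6 read 7.97, 7.90 and 7.4 at P1.25 and 7.04, 6.92 and 7.97 at P20, and again the third P20 array was the highest of its group. Of 34 listed genes of ethylene signalling and response 11 were measured, 7 of them also among the ERF genes above. None of the 11 was called in either fit. At an unadjusted p under 0.05, 2 passed with every array, beside 5.58% of all transcripts, and 3 without the third ones, beside 7.18%. Without the third arrays 4 of the 11 had higher means at P20, with a median of -0.08. Between the third arrays 10 were higher, with a median of 0.49. ESE3, an ERF annotated as ERF003, is named for its induction by ethylene and salt. It read 4.57, 5.27 and 5.24 against 5.84, 5.90 and 6.67, with no overlap and a difference of 1.11 ± 0.27 (limma adjusted p 0.372). At P0 it rose by 1.2 (limma adjusted p 0.00491). By quantitative PCR, the study reports ERF003 as changed specifically at P20, in root and shoot.

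Cell wall families were near 0 in the middle, with single genes outside. EXPA17, an alpha-expansin known from lateral root formation, read 6.57, 6.59 and 6.28 at P1.25 and 8.68, 8.68 and 7.68 at P20. The groups were apart on every array, but the difference of 1.87 ± 0.40 was not called (limma adjusted p 0.236), nor was that of 2.1 ± 0.46 without the third arrays (limma adjusted p 0.143). At P0 EXPA17 fell by 1.33 (limma adjusted p 0.0259). The 28 measured expansins had a median difference of 0.07, with none called in either fit and with 3 at an unadjusted p under 0.05 with every array and 1 without the third ones. Of these, 5 had P20 arrays all above the P1.25 arrays, beside 6.24% of all transcripts, and none had them all below, beside 4.83%. EXLB1, an expansin-like protein, read 6.6, 6.49 and 6.47 against 7.32, 7.12 and 7.89, a difference of 0.92 ± 0.28 (limma adjusted p 0.61). The 16 xyloglucan endotransglucosylases had a median of 0.19, no call, and 2 at an unadjusted p under 0.05 in each fit. The 26 class III peroxidases had a median of 0.13, no call, and 1 and 3 at an unadjusted p under 0.05. Of all transcripts, 5.58% passed at that level with every array and 7.18% without the third ones. PA2, a class III peroxidase, read 4.72, 4.52 and 4.47 against 4.99, 5.18 and 5.15, a difference of 0.53 ± 0.10 (limma adjusted p 0.121).

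**Figure D5:**
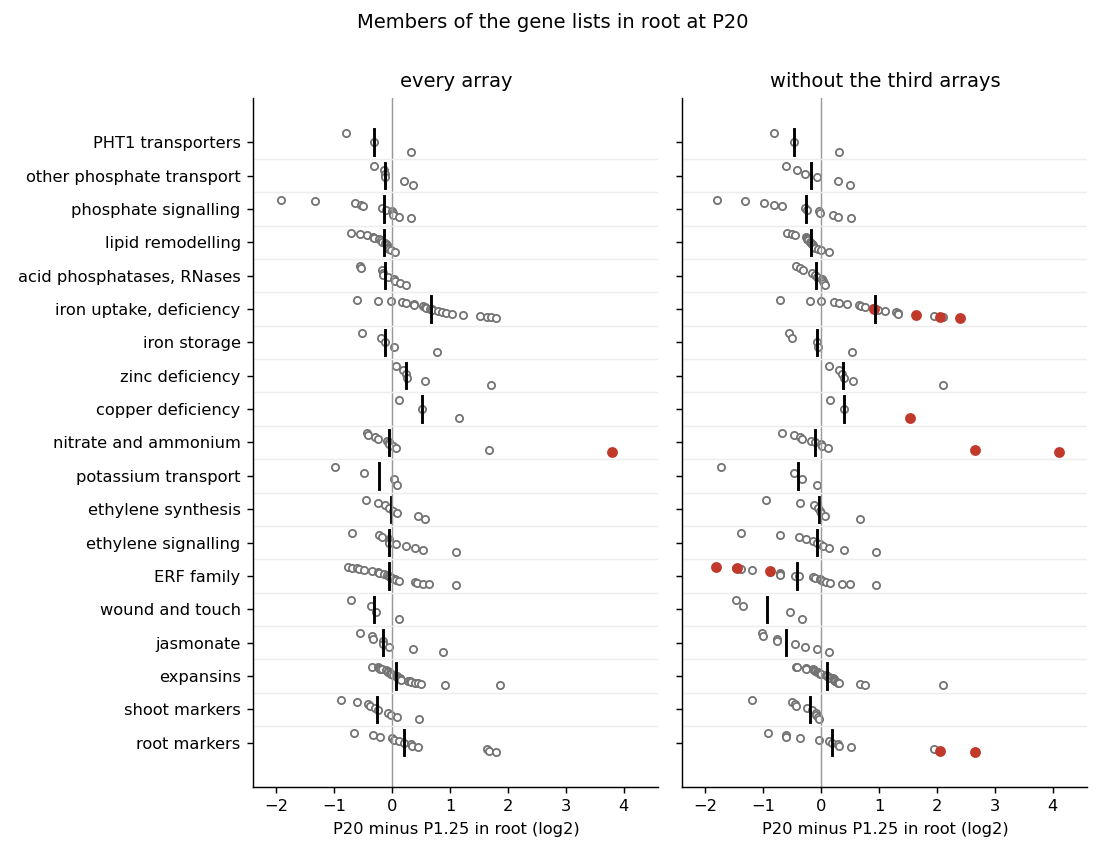
Log2 difference between P20 and P1.25 in root (horizontal axis) of each measured member of 19 gene lists, with every array (left) and without the third arrays (right); red filled points were called, open points were not, and black bars are list medians. The iron uptake list has its median at 0.67 and 0.93, the ERF family at -0.06 and -0.42, and all 5 phosphate lists have medians below 0 with no red point.

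Lists for growth of the root gave no call, but most of their listed genes were not measured. Named transcripts were found for 7 of 37 listed genes of the cell cycle and DNA replication and 5 of 18 root meristem regulators. The same held for 6 of 13 auxin genes, 3 of 16 root hair genes and 8 of 25 genes of the endodermal barrier. None of these was called in either fit. Their median differences with every array were 0.08, 0.12, 0.05, 0.06 and 0.16. At an unadjusted p under 0.05 these lists held 0, 0, 1, 0 and 0 genes with every array and 0, 0, 0, 0 and 1 without the third ones. The shares over all transcripts were 5.58% and 7.18%. AUR1, an Aurora kinase of dividing cells, read 7.25, 7.58 and 7.67 at P1.25 and 7.90, 7.95 and 7.85 at P20, a difference of 0.40 ± 0.20 (limma adjusted p 0.88). LBD16, a transcription factor of lateral root initiation, read 6.11, 6.2 and 5.97 against 6.50, 6.30 and 6.62, a difference of 0.38 ± 0.12 (limma adjusted p 0.667). In both genes the groups did not overlap, as in 11.1% of all transcripts. All 4 measured genes of anthocyanin and flavonoid synthesis had lower means at P20, with a median of -0.42, none called in either fit, and 2 at an unadjusted p under 0.05 with every array and 0 without the third ones. TT4, chalcone synthase, read 8.82, 8.89 and 9.0 against 8.33, 8.54 and 8.52, a difference of -0.44 ± 0.17 (limma adjusted p 0.768).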

How the data were processed

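The authors scanned 18 arrays (2 tissues, 3 treatments, 3 arrays per group), summarised them with RMA in Partek 6.6 and deposited log2 values for 38408 transcripts. Depth does not apply, and the number of arrays limits the precision. The genome build is not given in the sources used here. Platform annotation gave 1 gene for 16722 transcripts, several for 759 and none for 20927, and the study's supplementary lists named 1111 more. Those lists over-represent genes that differ at P0.

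The deposited log2 values were fitted with limma 3.58.1 (R 4.3.3) as 6 group means over all 18 arrays with moderated variances, and p-values were adjusted by Benjamini-Hochberg over all transcripts, with a threshold of 0.1 at any fold, as in the study's methods for P20. Calls at P0 also use any fold, where the methods add a 2-fold limit. The same fit was made on the 16 arrays left without the third root P20 and P1.25 arrays. The fit was tested on simulated data. Tables and figures used Python 3.11.15, numpy 2.4.6, pandas 2.3.3 and matplotlib 3.10.9.

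Of 31 hand-made lists with 531 genes, 219 genes had a named transcript. A further 6 families were found by gene name or the study's product text. Members and lists were chosen with earlier results of these data known. Named genes were the called genes with 1 gene, and genes the study discusses for root at P20. Up to 8 rises and 8 falls called without the third arrays, with no overlap over all 6 arrays, were also named. So were up to 4 called members of each list, or otherwise the 2 with the smallest adjusted p with every array. Others are said to be named after their values were seen.

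Alternatives were moderation, a mean-variance trend, array weights, fewer arrays, filters on dim, identical or unnamed transcripts, quantile normalization, centring, a replicate block, stricter thresholds and leaving out each root array.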

Additional observations from a re-analysis of the deposited data

Results flagged for a closer look

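In 4 transcripts the response to P20 differed between root and shoot by a direct limma test of that difference. With a replicate block in the fit none of them passed. AT2G36255 changed by 5.05 in root and 0.03 in shoot, a gap of 5.03 (adjusted p 0.0207, and 0.000133 without the third root arrays). AT1G34047 changed by 4.42 in root and 0.45 in shoot, a gap of 3.97 (adjusted p 0.028, and 0.000431 without the third root arrays). A transcript with no gene name changed by 0.97 in root and -0.51 in shoot, a gap of 1.48 (adjusted p 0.0585, and 0.0121 without the third root arrays). SRG3 differed by -0.56 in root, where it was not called (adjusted p 0.136), and by -1.74 in shoot, where it was, a gap of 1.18 (adjusted p 0.0207, and 0.00786 without the third root arrays). Single outlying arrays were not tested within groups of 3.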

How the results depend on the processing

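NRT1.8 was called under all 19 alternatives, AT2G36255 and AT1G34047 under 18, AT5G33355, AT4G31330 and AT2G43660 under 17, AT1G67870 under 14, AT1G64370 under 13, AT4G11393 under 11, NSP3 under 10, and AT5G08360 and AT5G40100 under 8. The count of 18 with every array became 30 without moderation, 271 with array weights, 4 with root arrays only, 35 without the dimmest 25% of transcripts, 31 with identical transcripts counted once, 6 at an adjusted p under 0.05, 7 with the 6 arrays alone, 148 without the third root arrays and 1003 without the third shoot arrays at P20 and P1.25 as well. Leaving out 1 root array gave 7 to 121: 43 without the third P1.25 array, 121 without the third P20 array, 18 without P20 array 1, and 7 or 8 without any other. The share of higher calls was 83.3%, and 68.4% after centring, 60.9% after quantile normalization, 58.3% with a trend and 55.6% among transcripts with 1 gene. The count of 148 became 704 with array weights, 435 with root arrays only and 76 at an adjusted p under 0.05, and 31 to 64 with 1 more array left out. Its share of higher calls was 41.9%, and 26.3% after centring and 33.3% after quantile normalization. The 4 gaps between root and shoot became 16 with array weights, 38 without the third root arrays and 380 without the third shoot arrays too, and 2 to 24 with 1 root array left out. The cause of these differences was not tested.

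FRO2 was -0.01 without the third P1.25 array and 3.76 without the third P20 array, the lowest and highest values with 1 array left out. The iron list held 15 rises and the ERF family 8 falls without the third root and shoot arrays, and the 47 phosphate starvation genes then held 9 falls, beside 0.935% rises and 1.68% falls over all transcripts. With array weights there were 3 rises in the iron list and 5 falls among the 47, beside 132 rises and 139 falls over all 38408 transcripts. These list counts were added after seeing the data.

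Same-numbered root arrays deviated together weakly, with r of 0.0766, 0.127 and 0.225 for replicates 1 to 3. Only replicate 1 fell below the limit of 0.1 used for pairing, and the third arrays shared the most. Whether the numbers pair the arrays is therefore not settled, and the fit with a replicate block cannot be set aside. With a replicate block the counts were 16 with every array, 76 without the third arrays and 0 for the gap between the tissues.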
